A study of Rattus norvegicus with 6 samples.

Results

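The Zfp genes are the rodent genes whose names are Zfp ("zinc finger protein") followed by a number. They were measured by RNA sequencing in purified rat beta cells, which secrete insulin in pancreatic islets, under either a control siRNA or one directed at Nova1. Members were taken by name from the transcript assembly, with letter case ignored, and their estimated reads were summed over transcripts. Of 23998 gene names in the assembly 296 matched, and 276 of these had at least 10 reads in 3 or more libraries, as did 15938 of all names. The members nearest to that limit were Zfp93, with 12 reads in its third-highest library, and Zfp804a and Zfp853, with 8 reads each. The 296 names cover 304 gene models (a name at a locus), because 7 names occur at several loci.

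Most Zfp proteins carry C2H2 fingers, small folds held by a zinc ion, and a row of such fingers reads a stretch of DNA. A large class adds a KRAB domain, which recruits the corepressor Trim28 and, through it, the histone methyltransferase Setdb1, and many KRAB members silence transposable elements. The class grew by tandem duplication, so its genes often lie side by side as near copies. The name is not a strict family. Zfp36, Zfp36l1 and Zfp36l2 have CCCH fingers that bind RNA, and 25 of the 273 names that matched RefSeq did so through a synonym. Among them Zfp238 is Zbtb18, Zfp161 is Zbtb14, Zfp278 is Patz1, Zfp259 is Zpr1 and Zfp364 is the RING finger gene Rnf115.

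The beta cells were sorted by flow cytometry in 3 batches, cultured, and transfected by lipid reagent with 30 nM siRNA, either a commercial non-targeting sequence or the one against Nova1, an RNA-binding regulator of splicing. Cells recovered for 48 h after 16 h of transfection, and each of the 6 libraries is 1 batch under 1 treatment. The sources used here do not give strain, age or sex of the rats or the number of animals in a batch, and p-values cover only the spread from batch to batch. The labels describe 1 knockdown condition, and an effect of Nova1 loss cannot be told apart from any other effect of that siRNA. Library depth, Nova1 and cell type markers bear on all that follows. Assigned reads ranged from 95394043 to 292432076, and the control was the deeper library in every batch. Nova1 RNA fell in the knockdown libraries by 1.12 on the log2 scale (SE 0.11; limma adjusted p = 0.038). By batch the differences were -1.41, -1.07 and -0.88. In reads per kilobase of transcript (RPKM), which depend on the transcripts that reads were assigned to, the fall was smaller in batches 2 and 3. Nova1 was at 5.06, 2.83 and 2.03 RPKM in control batches 1, 2 and 3 and at 1.38, 2.38 and 1.81 RPKM in knockdown batches. The 14 beta cell markers summed to between 141600 and 251040 CPM in control libraries and to between 104080 and 241900 CPM in knockdown libraries (CPM, reads scaled to the effective library size), lowest in batch 2 under both treatments. Of 8 matched stellate cell and fibroblast markers 2 rose, the collagen genes Col3a1 and Col5a1, and 6 were positive. The sum of the 8 lay between 39.7 and 85.1 CPM in controls and between 98.9 and 125.8 CPM in knockdowns, without overlap. Most of that sum was RNA of the collagen genes Col1a1 and Col1a2. The receptor genes Pdgfra and Pdgfrb had log2 fold changes of -0.79 and -0.19, and neither passed. Of 8 immune markers 1 rose and 1 fell (4 at an unadjusted p under 0.05, 16.2 to 28.0 CPM in sum over all libraries). Of 7 matched acinar markers 1 fell (4 unadjusted), 1 was positive and the median log2 fold change was -0.40. Acinar markers summed to 441, 277 and 159 CPM in control batches 1, 2 and 3 and to 329, 222 and 113 CPM in knockdown batches, lower in the knockdown library of each batch. Of 6 other islet endocrine markers 1 was at 0 in all libraries, and 0 of 5 tested passed (2 at an unadjusted p under 0.05). Their sum, most of it Gcg, was the largest of any group other than beta cell markers. It was 5722, 13929 and 8672 CPM in control batches 1, 2 and 3 and 7673, 14615 and 10778 CPM in knockdown batches, higher in the knockdown library of each batch. Of 13 beta cell, 4 duct and 3 endothelial markers tested 0 passed (1, 1 and 0 unadjusted). Duct markers summed to 254, 179 and 229 CPM in control batches 1, 2 and 3 and to 323, 195 and 290 CPM in knockdown batches. Most of that sum was Krt7 (log2 fold change 0.31), while Krt19 was lower (-0.18). The part of these other cells in the results for Zfp genes was not tested, and in bulk RNA fewer cells of a type and less RNA per cell cannot be told apart.

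A promoter feature is shared by part of the family and was not used to choose it. RefSeq promoters of the GRCr8 assembly (250 bases before to 50 after the first start listed for a gene) were on hand for 222 Zfp genes and 27457 genes in all. The letters ACTACANNT, the start of the site bound by Zfp143 itself, were found on either strand in 36 Zfp promoters. That is 16.2% of the Zfp promoters, against 4.13% of all promoters and 4.40% of those of protein-coding genes. Below are windows of 49 bases around these letters in the 8 Zfp genes with the highest control level among the 29 with a window wholly before the start. The windows were chosen by these letters, which are therefore alike in all of them except at N (any base). Likeness between members can be read only from the other bases. Each window is written along the strand that reads ACTACA, with the letters searched in capitals.

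Zfp146: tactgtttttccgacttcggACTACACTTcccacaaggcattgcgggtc
Zfp444: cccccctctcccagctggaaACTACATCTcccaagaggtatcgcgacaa
Zfp180: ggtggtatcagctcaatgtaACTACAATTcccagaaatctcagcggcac
Zfp110: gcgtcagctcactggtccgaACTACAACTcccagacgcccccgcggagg
Zfp277: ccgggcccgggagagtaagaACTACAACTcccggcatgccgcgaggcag
Zfp451: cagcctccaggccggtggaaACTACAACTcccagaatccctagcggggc
Zfp18: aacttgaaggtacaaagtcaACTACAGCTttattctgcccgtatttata
Zfp455: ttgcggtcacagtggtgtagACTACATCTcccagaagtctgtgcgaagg

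In GRCr8 these windows lie at chr1:94549405-94549453 (plus strand) for Zfp146, chr1:76761591-76761639 (plus) for Zfp444, chr1:88780292-88780340 (minus) for Zfp180 and chr1:82517989-82518037 (minus) for Zfp110. The others lie at chr6:63240005-63240053 (plus) for Zfp277, chr9:43536660-43536708 (minus) for Zfp451, chr10:50979597-50979645 (minus) for Zfp18 and chr2:86426875-86426923 (minus) for Zfp455. Their centres are 26 (Zfp180) to 222 (Zfp18) bases before the start, and Zfp451 carries the site in the direction of the gene, the other 7 in the opposite direction. In 7 of the 8, all but Zfp18, the letters go on with cc, as the site bound by Zfp143 does, and in 29 of 34 windows in all. A match in the letters is a description and does not show that the protein binds there.

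Other motifs were searched on both strands of the same promoters, each counted whether or not it overlapped another. The ETS letters CCGGAAG were in 19.8% of Zfp, 9.22% of all and 11.2% of protein-coding promoters, and GCGCATGC, part of the NRF1 site, in 6.76%, 2.66% and 3.22%. The YY1 letters AAGATGGC were in 5.41%, 3.44% and 3.92%, the CRE letters TGACGTCA in 2.25%, 1.91% and 2.22%, and CCAAT in 41.0%, 37.7% and 38.4%. The TATA box letters TATAAA were in 9.91% of Zfp promoters, 14.3% of all and 13.1% of protein-coding ones. Zfp promoters held a median of 17 CpG pairs in 300 bases, against 7 over all promoters and 12 over those of protein-coding genes. Zfp143, the factor that binds sites of the kind shown above, was at 11.5, 12.8 and 12.1 CPM in control batches 1, 2 and 3 and at 12.4, 13.4 and 11.1 CPM in knockdown batches, and it did not pass the test (log2 fold change 0.02, adjusted p = 0.88 in limma). Zfp genes with the Zfp143 letters had a median log2 fold change of 0.08 (34 tested) and those without them one of 0.09 (173 tested). For the YY1 letters the medians were 0.18 (12 tested, 11 positive) and 0.09 (195 tested, 135 positive), and for the other motifs 0.05 to 0.08 with and 0.09 without. These differences were not tested.

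Zfp genes were expressed broadly and at low levels in these cells. Of 285 models tested, 234 had a mean of at least 1 RPKM (reads per kilobase of transcript and per unit of sequencing depth) in control libraries, and 23 had at least 10. The latter is 8.07% of the Zfp models, against 33.6% of all genes tested. The median control level was 2.87 RPKM, against 4.81 over all genes. Members spanned a narrower range than genes in general, with a 10th percentile of 0.54 and a 90th of 9.63 RPKM against 0.18 and 41.2. The 19 models not tested were among the lowest, and 7 of the 304 had 0 reads in all libraries. Zfp853 passed the filter of the test, which is scaled to depth, but not the fixed limit of 10 reads.

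Summed over the family, RPKM was 1128, 1470 and 1023 in control batches 1, 2 and 3 and 1172, 1631 and 1157 in knockdown batches 1, 2 and 3. The knockdown sum of RPKM was the higher one in each batch, and batch 2 was high under both treatments, so that the groups overlapped. The family's share of all RPKM was higher in the knockdown library of each batch, at 0.122%, 0.200% and 0.107% in controls and 0.125%, 0.254% and 0.126% in knockdowns. A share depends on the total too, much of which was RNA of the insulin genes Ins1 and Ins2. Ins1 was at 299980, 190650 and 312890 RPKM in control batches and at 310170, 139930 and 299190 RPKM in knockdown batches. The part of the total in these shares was not tested. By reads, which take no account of length, the family was lower in the knockdown library of batch 1. Summed CPM was 4483, 5460 and 4020 in controls and 4410, 5747 and 4342 in knockdowns, and the share of reads in batch 1 was 0.423% in the control and 0.422% in the knockdown library. Models at 1 RPKM or more numbered 224, 237 and 218 in controls and 226, 244 and 227 in knockdowns.

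The highest member was Zfp395, a DNA-binding factor, at 24.1, 43.1 and 19.6 RPKM in control batches 1, 2 and 3 and 26.2, 42.7 and 21.2 RPKM in knockdown batches. Zfp207, which guides the mitotic checkpoint protein Bub3 to kinetochores and also acts in splicing, was at 11.9, 42.7 and 30.3 RPKM in controls and 36.0, 47.0 and 33.0 RPKM in knockdowns. Both were highest in batch 2, and neither passed the test (log2 fold changes -0.04 and 0.05, adjusted p = 0.64 and 0.55 in limma). In CPM, which takes no account of the lengths of the transcripts that reads were assigned to, Zfp207 in batch 1 was at 70.3 in the control and 71.5 in the knockdown library. Zfp664 was at 27.1 ± 0.32 RPKM in controls (SD, n = 3) and 27.9 ± 3.04 in knockdowns. Zfp364, the ubiquitin ligase Rnf115, was at 23.0 ± 2.85 and 24.6 ± 3.07 RPKM, and Zfp330, a nucleolar protein, at 19.7 ± 1.03 and 20.3 ± 0.43. The next were Zfp106, an RNA-binding protein, at 16.8 ± 6.88 and 18.9 ± 8.005 RPKM, Zfp652, a repressor, at 16.8 ± 1.21 and 14.3 ± 3.13, and Zfp91, a ubiquitin ligase, at 15.9 ± 2.01 and 19.5 ± 2.40. In control libraries Zfp664 and Zfp364 were the only neighbours in this order whose values did not overlap.

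**Figure D1:**
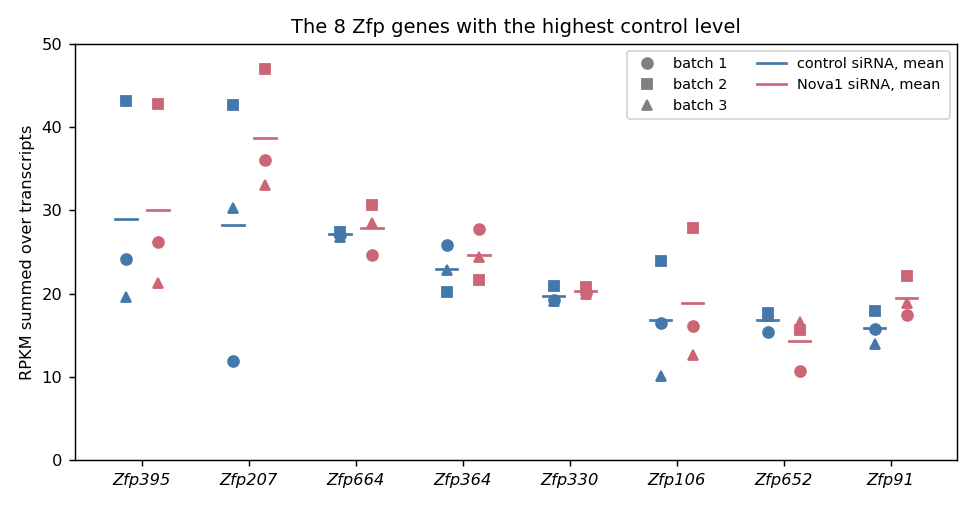
RPKM summed over transcripts (y axis) for the 8 Zfp genes with the highest control mean, in control libraries (blue) and libraries treated with the Nova1 siRNA (red). Symbols are batches and short lines are means over 3 libraries. Zfp395 and Zfp207 spread over batches from 11.9 to 47.0 RPKM, while Zfp330 stayed between 19.1 and 20.9 RPKM.

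Zfp gene models were longer than genes in general and leaned on newly assembled transcripts. The median length of a tested member, as the mean of its transcripts weighted by RPKM, was 3181 nt, against 2277 nt over all genes tested. Members had a median of 3 transcripts, against 2. Transcripts with the assembly's class code j, meaning a new combination of splice sites within a known gene, held a median of 64.8% of a Zfp gene's control RPKM, against 27.0% over all genes. They held over 50% in 167 Zfp models, or 58.6%, against 37.8% of all genes. Such transcripts depend on the assembly, and their values are estimates divided among overlapping models.

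In total RNA 2 Zfp genes passed the test, a low share in a fit that called few genes of any kind. Of 285 models 1 rose (Zfp238) and 1 fell (Zfp709l2) at an adjusted p under 0.05 in limma, which is 0.351% in each direction. Over all 15983 genes 0.513% rose and 1.2% fell, or 1.71% in either direction. At an unadjusted p under 0.05, 60 Zfp models were higher (21.1%) and 12 lower (4.21%) in knockdown libraries, against 12.4% and 11.5% of all genes, or 25.3% against 23.9% in either direction. Without batch 1 or without batch 2 0 Zfp models passed (48 at an unadjusted p under 0.05 in each), where 0.0246% and 0 of all genes passed (18.0% and 17.3% unadjusted). Without batch 3 Zfp238 rose and Zfp799 in place of Zfp709l2 fell, and 0.465% of all genes passed. With a correction for transcript length 8 Zfp models passed, or 2.81% against 3.68% of all genes. Zfp238, Zfp239, Zfp385a and Zfp862 rose, and Zfp426l, Zfp516, Zfp652 and Zfp709l2 fell. Without the batch block 0 Zfp models (8 unadjusted) and 0 of all genes (3.26% unadjusted) passed.

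Zfp238, known as Zbtb18 or RP58, is a repressor that binds E-box-like sites and is needed for the development of neurons and muscle. It was at 16.4, 14.9 and 16.8 CPM in control batches 1, 2 and 3 and at 26.4, 22.8 and 29.1 CPM in knockdown batches. The groups did not overlap, and the lowest knockdown library was above the highest control. The log2 fold change was 0.70 (SE 0.060, adjusted p = 0.036), and by batch it was 0.69, 0.61 and 0.79. Its model in the assembly is a single exon of 1569 nt on the plus strand of chromosome 13 (chr13:100036034-100037602 of Rnor_5.0), matching a reference transcript, so no splice form was distinguished. It had 1938 to 4524 reads in a control library and 2468 to 4146 in a knockdown library. The gene did not pass without batch 1 or without batch 2 (adjusted p = 0.16 in both limma fits) or without the batch block (adjusted p = 1.00), and its log2 fold change was 0.71 without batch 1 and 0.74 without batch 2.

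Zfp709l2 was at 0.387, 3.40 and 0.166 CPM in control batches 1, 2 and 3 and at 0.073, 0.866 and 0.067 CPM in knockdown batches. The knockdown library was the lower one of each batch, but batch 2 was high under both treatments and the groups overlapped. The log2 fold change was -1.94 (SE 0.24, adjusted p = 0.044 in limma). This call is uncertain for several reasons that the files show. The model lies at a locus (chromosome 7, chr7:15301100-15331348 of Rnor_5.0) where 4 Zfp names share 1 assembled locus, so reads could be divided between near copies. Without batch 1, 2 or 3 its adjusted p was 0.18, 0.24 and 0.051, and its log2 fold change was -1.87, -1.88 and -2.03. With library totals alone these were 0.051 and -1.86. On log2(RPKM + 1), a scale that understates the change of low genes, the difference was -0.34, and it did not pass there or on log2(RPKM + 0.1) (adjusted p = 0.30 and 0.19 in limma-trend).

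**Figure D2:**
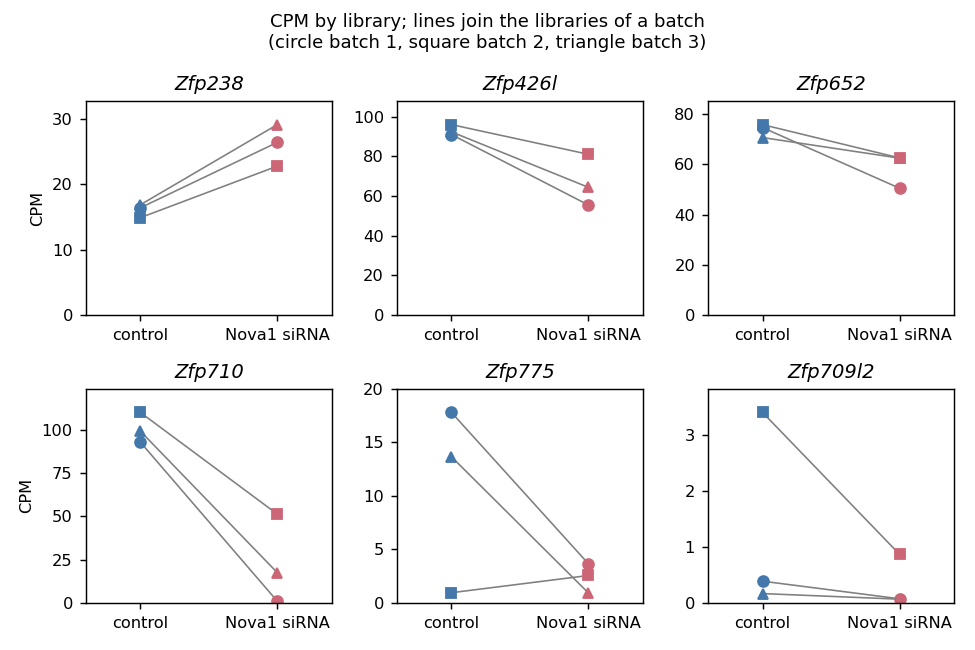
CPM (y axis) of 6 Zfp genes in each library, control at the left and Nova1 siRNA at the right of each panel, with lines joining the libraries of a batch. Zfp238 rises in 3 batches from 14.9 to 16.8 CPM to between 22.8 and 29.1 CPM, and Zfp775 is lower after knockdown in batches 1 and 3 but higher in batch 2.

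Most of the family sat slightly above the centre of all genes. The median log2 fold change of the 285 models was 0.10, with 200 positive and 85 negative (70.2% positive), against a median of 0.004 and 50.8% positive over all genes. The middle of the distribution ran from -0.02 to 0.20 (25th to 75th percentile), against -0.14 to 0.15. The median was 0.04, 0.09 and 0.11 in batches 1, 2 and 3, so its sign was the same in each. Over all genes it was 0.015, -0.008 and 0.001. Positive were 58.2%, 70.9% and 70.5% of Zfp models in these batches, against 53.2%, 48.5% and 50.2% of all genes. The shift was thus smallest in batch 1. In 116 models (40.7%) the knockdown library was the higher one in all 3 batches and in 28 (9.82%) the lower one, against 25.8% and 24.3% of all genes.

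**Figure D3:**
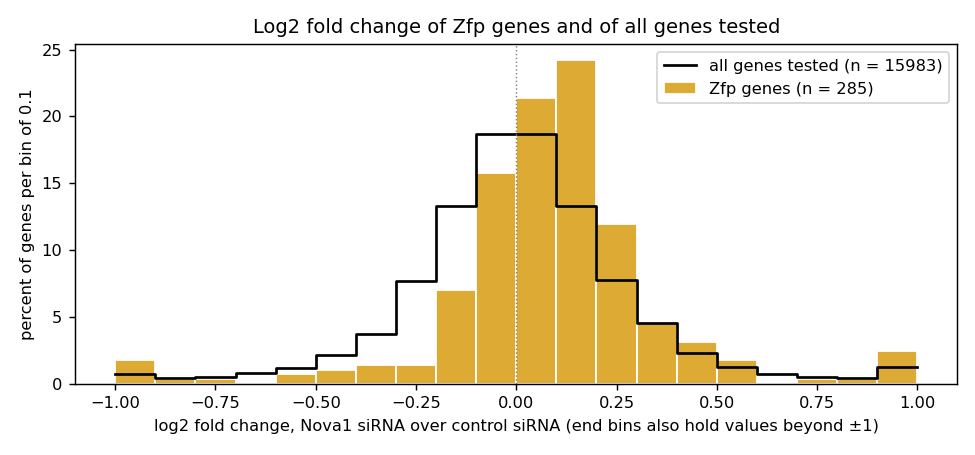
Percent of genes (y axis) in bins of 0.1 of the log2 fold change between Nova1 siRNA and control siRNA (x axis), for 285 Zfp models (bars) and all 15983 genes tested (line). The bars lie to the right of the line, with 70.2% of Zfp models above 0 against 50.8% of all genes.

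The log2 fold change followed transcript length over all genes, but only weakly among Zfp models. Over all genes the log2 fold change correlated with length across genes (Spearman's rho 0.33), and its median was -0.07 below 2000 nt, 0.03 from 2000 to 4000 nt and 0.11 from 4000 nt. Among Zfp models the medians in the same classes were 0.08 (60 models), 0.08 (128) and 0.13 (97), and the correlation across members was weak (rho 0.09). Genes that share a library share its length trend, so these correlations are descriptions. When a smooth curve on length was subtracted in each library, the Zfp median was 0.05 with 65.3% positive, against 0.006 and 51.3% over all genes. With library totals alone in place of trimmed scaling the Zfp median was 0.15 and that of all genes 0.06. Scaling moves all genes of a library by about the same amount. The gap of 0.09 between these medians could therefore hardly differ between the scalings.

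In 15 models (5.26%) every knockdown library was above every control library, and in 3 (1.05%) below, against 3.96% and 4.1% of all genes. Those below were Zfp710, Zfp426l and Zfp652, and the text names them and those that follow after their values were seen. Zfp426l, which RefSeq lists as Zfp266, was at 91.0, 96.0 and 92.3 CPM in control batches and at 55.5, 81.0 and 64.4 CPM in knockdown batches (log2 fold change -0.49, SE 0.094, adjusted p = 0.071 in limma). Zfp652, which represses genes with the corepressor Cbfa2t3, was at 74.7, 75.9 and 70.7 CPM in controls and at 50.5, 62.6 and 62.5 CPM in knockdowns (-0.34, SE 0.084, adjusted p = 0.10). Neither passed, although both did with the correction for transcript length (adjusted p = 0.035 and 0.047).

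Those above control in every library, besides Zfp238, were Zfp12, Zfp39, Zfp68, Zfp91, Zfp189, Zfp239, Zfp362, Zfp385a, Zfp426l2, Zfp467, Zfp560, Zfp606, Zfp653 and Zfp786. Zfp385a, which binds RNA and DNA and takes part in p53 target choice, was at 2.47, 1.77 and 2.30 CPM in control batches and at 3.70, 2.64 and 2.98 CPM in knockdown batches (0.51, SE 0.10, adjusted p = 0.078 in limma). Zfp786 was at 2.56, 2.66 and 2.27 CPM in controls and at 3.13, 4.07 and 3.65 CPM in knockdowns (0.52, SE 0.12, adjusted p = 0.095). Zfp189 was at 4.41, 4.67 and 4.88 CPM and at 6.27, 6.16 and 5.85 CPM (0.39, SE 0.086, adjusted p = 0.088). The groups stood apart in each, and none of these 14 passed over all genes.

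Several members with large fold changes varied widely between batches. Zfp710 was at 93.1, 110 and 99.4 CPM in control batches 1, 2 and 3 and at 0.965, 51.4 and 17.5 CPM in knockdown batches, a log2 fold change of -2.60 (SE 0.84) that did not pass (adjusted p = 0.15 in limma). Its differences by batch were -6.59, -1.10 and -2.51. Transcripts of Zfp710 include models of 10266 nt and 2290 nt. The long form held 99.9%, 0.289% and 65.2% of its RPKM in controls and 10.8%, 12.1% and 17.2% in knockdowns, and the short form 0.011%, 0.324% and 0.011% in controls and 68.5%, 33.2% and 53.7% in knockdowns. Zfp775 was at 17.8, 0.952 and 13.6 CPM in controls and at 3.65, 2.56 and 0.926 CPM in knockdowns (-2.32, adjusted p = 0.14), lower in batches 1 and 3 and higher in batch 2. Zfp53 was at 1.56, 0.852 and 1.01 CPM in controls and at 1.86, 11.8 and 1.06 CPM in knockdowns (1.67, adjusted p = 0.26), and Zfp688 at 0.724, 0.614 and 1.32 CPM and at 6.79, 0.224 and 0.726 CPM (1.60, adjusted p = 0.33). In both a single knockdown library was high, that of batch 2 for Zfp53 and that of batch 1 for Zfp688, and without batch 1 the log2 fold change of Zfp688 was -1.01. Zfp775, Zfp688 and Zfp407 each lie at a locus that also carries a gene without a symbol. Zfp407 was at 2.99, 4.67 and 2.02 CPM in controls and at 0, 5.46 and 1.49 CPM in knockdowns, and Zfp37 at 1.42, 2.76 and 1.11 CPM and at 2.50, 3.14 and 1.98 CPM (0.59, adjusted p = 0.13). In all 11 of the 285 models (3.86%) differed by at least 1 on the log2 scale, against 1.56% of all genes.

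By role, the members with the best-known functions were counted in 3 lists. Of all genes tested 23.9% were at an unadjusted p under 0.05 and 50.8% were positive. Of 13 RNA-binding and translation proteins 0 passed (3 at an unadjusted p under 0.05), 9 were positive and the median was 0.05. Zfp36, which with Zfp36l1 and Zfp36l2 destabilises AU-rich messages, was at 11.5 ± 1.14 CPM in controls and 11.6 ± 0.44 CPM in knockdowns (SD, n = 3). Zfp598, which senses collided ribosomes, was at 45.3 ± 9.66 and 52.4 ± 7.67 CPM (log2 fold change 0.22, SE 0.057, adjusted p = 0.11 in limma). Zfp638, a splicing-associated nuclear protein, was at 65.6 ± 34.8 and 83.9 ± 25.8 CPM (0.43, SE 0.13, adjusted p = 0.14), higher in the knockdown library of each batch (0.41, 0.10 and 0.79).

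Of 11 matched DNA-binding factors Zfp238 alone rose, 0 fell, 10 were positive and the median was 0.14. Zfp57, which keeps methylation at imprinted regions, was at 10.9 ± 3.78 and 13.0 ± 4.07 CPM (0.26, SE 0.062, adjusted p = 0.10 in limma). Zfp148, a GC-box factor, was at 91.0 ± 8.38 and 96.7 ± 10.5 CPM, and Zfp410, which activates the Chd4 gene, was at 24.1 ± 0.91 and 22.7 ± 1.22 CPM. Chd4 itself was at 232.5 ± 76.0 and 260.2 ± 36.2 CPM. Neither Zfp148, Zfp410 nor Chd4 passed (adjusted p = 0.38, 0.38 and 0.35).

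Of 13 cofactors and modifying enzymes 0 passed, and 8 were at an unadjusted p under 0.05, where 23.9% of all genes were. The list was chosen with earlier results known. Of the 13, 10 were positive and the median was 0.20, with 0.09, 0.15 and 0.38 in batches 1, 2 and 3. The batch 3 libraries thus differed most. Zfp592, Zfp687 and Zfp532, partners in 1 chromatin complex, had log2 fold changes of 0.28, 0.17 and 0.30 (adjusted p = 0.18, 0.16 and 0.17 in limma). Zfp318 was at 22.0 ± 9.69 CPM in controls and 28.8 ± 9.44 CPM in knockdowns (0.42, adjusted p = 0.11), and Zfp91 at 80.9 ± 5.51 and 95.8 ± 5.43 CPM (0.24, adjusted p = 0.11). Zfp609, which works with the cohesin loader Nipbl and the Integrator complex, was at 71.0 ± 30.8 and 84.9 ± 24.2 CPM (0.32, adjusted p = 0.20). Zfp516 was lower, at 90.4 ± 24.6 and 76.0 ± 17.1 CPM (-0.23, adjusted p = 0.18), and passed with the correction for transcript length (adjusted p = 0.042). The correction took the list's median to 0.12.

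The proteins that KRAB factors recruit did not pass either. Of 37 symbols of that pathway 34 matched, as 35 models, of which 0 rose and 0 fell (7 at an unadjusted p under 0.05, against 23.9% of all genes). Of the 35, 23 were positive and the median was 0.07. Trim28 was at 122.6 ± 6.59 CPM in controls and 121.5 ± 9.48 CPM in knockdowns, and Setdb1 at 34.5 ± 10.6 and 36.5 ± 8.61 CPM. Cbx1, a heterochromatin protein that reads methylated histone H3, was at 23.0 ± 2.49 and 27.9 ± 1.01 CPM (0.28, adjusted p = 0.088 in limma), and Smarcad1, a remodeller that works with Trim28, at 35.01 ± 5.22 and 27.0 ± 7.88 CPM (-0.40, adjusted p = 0.098). With the correction for transcript length these 2 passed (adjusted p = 0.041 and 0.043).

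Related finger families under other names were counted the same way, beside the 23.9% of all genes at an unadjusted p under 0.05. Of 36 Zbtb models 0 passed (9 at an unadjusted p under 0.05) and the median was 0.02. Of 10 Zscan and Zkscan models 0 passed (2 unadjusted) and the median was 0.09. Of 15 Klf models 1 rose (3 unadjusted) and the median was 0.17, and 3 Znf-named models had a median of 0.03 with 0 passing (0 unadjusted). No test of Zfp genes against these families was made.

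Zfp gene models lay on 21 chromosomes, and runs of neighbours on 9 of them. Of 304 models 79 (26.0%) were on chromosome 1, which holds 13.7% of all gene models, and 27 each on chromosomes 7 and 10. When neighbours up to 250 kb apart were joined, 104 models (34.2%) fell into 23 groups of 3 or more. Members in groups had a median control level of 2.33 RPKM and a median log2 fold change of 0.08 (70 of 102 tested positive), and those outside had 3.10 RPKM and 0.11 (130 of 183). Reads of near copies in a run may be divided among them, and 29 of the 285 tested models lie at a locus that carries another gene name too.

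**Figure D4:**
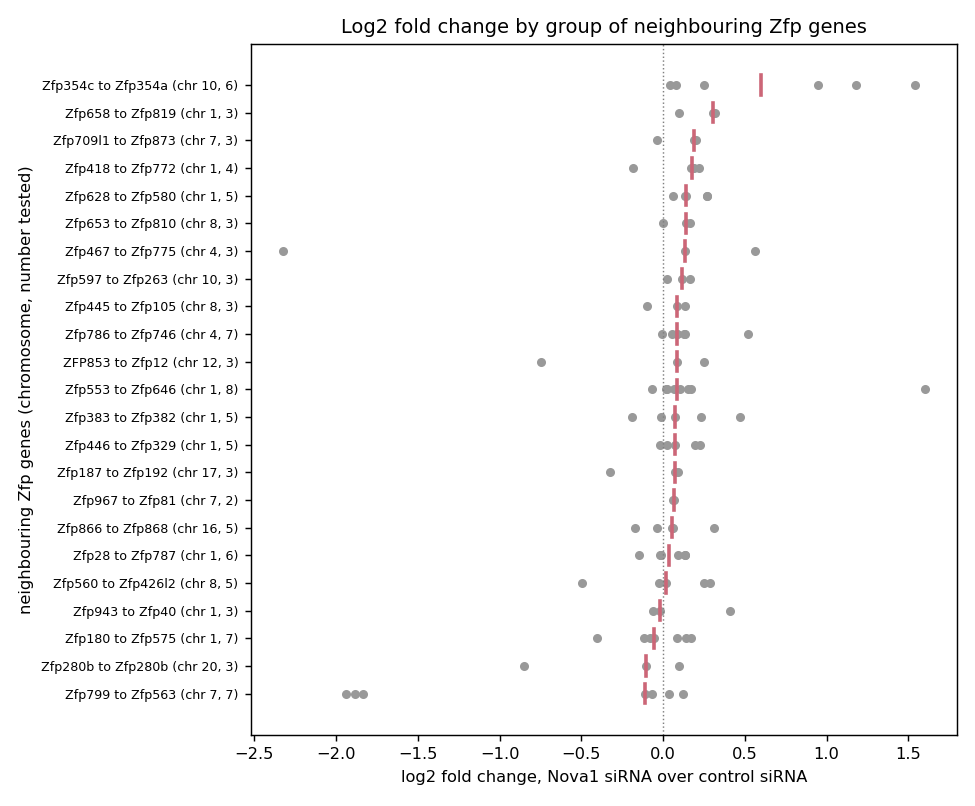
Log2 fold change between Nova1 siRNA and control siRNA (x axis) of each tested Zfp gene (points) in the 23 groups of neighbouring Zfp genes (y axis), with the median of a group as a red bar. The group from Zfp354c to Zfp354a has the highest median, at 0.60, and that from Zfp799 to Zfp563 the lowest, at -0.11.

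The highest median among the 23 groups was that of Zfp354c, Zfp980, Zfp454, Zfp2, Zfp354b and Zfp354a on chromosome 10 (36078621 to 36370934 of Rnor_5.0). The 6 log2 fold changes were positive, from 0.04 to 1.54, with a median of 0.60, and 0 passed (2 at an unadjusted p under 0.05). The values came apart by level. Zfp2 and Zfp354a, the ones with the most reads, were at 16.1, 12.2 and 14.7 CPM and at 7.71, 8.08 and 6.97 CPM in control batches, and at 16.1, 13.5 and 15.9 CPM and at 6.70, 8.56 and 8.25 CPM in knockdown batches. Zfp354b was at 0.281, 0.387 and 0.217 CPM in controls and at 0.748, 1.67 and 0.372 CPM in knockdowns (1.54, SE 0.30, adjusted p = 0.072 in limma), higher in each batch, with 1 knockdown library below the highest control. Zfp980 (RefSeq Zfp879) was at 0.585, 1.22 and 0.455 CPM and at 0.556, 4.31 and 0.913 CPM (1.18, adjusted p = 0.14). Zfp354b, Zfp980 and Zfp354c share 1 assembled locus. Zfp454 was at 0.1001, 1.64 and 0.656 CPM and at 1.302, 3.04 and 0.111 CPM (0.95, adjusted p = 0.50), lower in batch 3.

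The lowest median was that of Zfp799, Zfp871, Zfp709l2, Zfp472, Zfp952, Zfp763 and Zfp563 on chromosome 7 (15172710 to 15611908), where 2 of 7 were positive. Zfp799, Zfp709l2 and Zfp763 had log2 fold changes of -1.89, -1.94 and -1.83 and shared 1 assembled locus with Zfp871. Without batch 2 those of Zfp799 and Zfp763 were -0.51 and -0.95, and without batch 3 Zfp799 passed at -2.69 (adjusted p = 0.038 in limma) and Zfp763 was at -2.76 (adjusted p = 0.063). Zfp871 held nearly all the reads of that locus, at 123.5, 106.1 and 92.3 CPM in control batches and 118.2, 130.6 and 101.4 CPM in knockdown batches (0.12, adjusted p = 0.38 in limma). Zfp799 was at 1.74, 8.77 and 0.429 CPM in controls and at 0.454, 1.06 and 1.10 CPM in knockdowns (adjusted p = 0.21), and Zfp763 at 0.700, 3.22 and 1.07 CPM and at 0.203, 0.308 and 0.736 CPM (adjusted p = 0.15). For Zfp799, Zfp709l2 and Zfp763 the highest library was the control of batch 2.

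Nova1 acts on splicing, so transcript use within Zfp genes was the other comparison. The family has 1215 assembled transcripts, 828 of them new combinations and 387 reference ones. In 217 Zfp genes 763 transcripts could be tested for a change of share with diffSplice in limma, and 2 rose and 2 fell, which is 0.524% against 0.302% of all 31429 transcripts tested. By gene, Zfp609 and Zfp180 passed the Simes test, or 0.922% against 0.702% of 9538 genes. At an unadjusted p under 0.05 the shares were 8.91% and 9.01% of transcripts and 10.6% and 12.2% of genes. The count rests on which batches are in the fit. Without batch 1, 2 or 3 the numbers of Zfp transcripts that passed were 12, 26 and 19, of which 4, 3 and 3 were among the 4 named here. That is 1.54%, 3.27% and 2.42%, against 1.5%, 1.32% and 1.57% of all transcripts, so counts were higher over all genes too. By gene 9, 12 and 9 passed, or 4.11%, 5.43% and 4.15% against 3.24%, 2.89% and 3.34%. Without the batch block, of the 4 transcripts the one of Zfp418 passed, and the adjusted p was 0.072 for those of Zfp609 and 0.17 for that of Zfp180. By gene Zfp609 (adjusted p = 0.043 by Simes), Zfp418 and Zfp882 passed in that fit, and Zfp180 did not (0.16).

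In Zfp609 the reference transcript TCONS_00068206 was listed at 0 in 3 control libraries and at 58.2%, 53.1% and 59.5% of the gene's RPKM in knockdown batches 1, 2 and 3. Its partner TCONS_00068207, a new combination, went from 100% in each control to 41.8%, 46.9% and 40.5%. The groups were far apart and the knockdown libraries close to each other (adjusted p = 0.029 for each transcript in limma diffSplice). The 2 models on chromosome 8 share 8450 of the 8451 nt of the shorter one, and the other has 29 nt of its own. They start 328 bases apart and differ in the first exon, so these shares rest on reads over very few bases. An estimate at 0 between such models can be a failed estimate, and that was not tested. Between 3591 and 20840 reads per library were assigned to TCONS_00068207 of Zfp609.

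In Zfp180, a KRAB gene, the reference transcript TCONS_00001024 held 19.4%, 19.8% and 3.62% in control batches and was listed at 0 in 3 knockdown libraries (adjusted p = 0.015 in limma diffSplice). Its partner TCONS_00001025 held 27.7%, 43.5% and 38.2% in controls and 47.9%, 68.6% and 40.5% in knockdowns, with overlap between the groups. All 3834 nt of TCONS_00001024 lie within the exons of TCONS_00001025, which has 189 nt more. As in Zfp609, a value of 0 between such models can be a failed estimate, and that was not tested. The third transcript of Zfp180, TCONS_00001023, held 53.0%, 36.7% and 58.1% in controls and 52.1%, 31.4% and 59.5% in knockdowns. Zfp180 has the ETS, CCAAT and TATA letters in its promoter beside the Zfp143 letters printed above.

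In Zfp418 the transcripts are more distinct. TCONS_00000730, with 5 exons, held 23.8%, 10.8% and 13.4% in control batches and 61.2%, 73.6% and 65.3% in knockdown batches (adjusted p = 0.036 in limma diffSplice). TCONS_00000729, with 3 exons, held 38.6%, 69.6% and 44.5% in controls and 25.3%, 13.9% and 18.8% in knockdowns, and did not pass (adjusted p = 0.19). The groups did not overlap for either transcript. They share 317 nt, or 12.7% of the shorter one, and no intron. The partners differ in the last exon, and 2189 nt of TCONS_00000730 and 2506 nt of TCONS_00000729 are their own. TCONS_00000730 also has an exon of 39 nt (71013167 to 71013205 on chromosome 1 of Rnor_5.0) that its partner skips. By gene, Zfp418 did not pass (adjusted p = 0.052), and TCONS_00000730 did not pass without batch 2 (0.21) or without batch 3 (0.19). Without batch 2 its change in share was 44.6 points, against 50.7 points with all batches. Zfp418 as a whole was at 4.22 RPKM in controls and 5.85 RPKM in knockdowns.

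**Figure D5:**
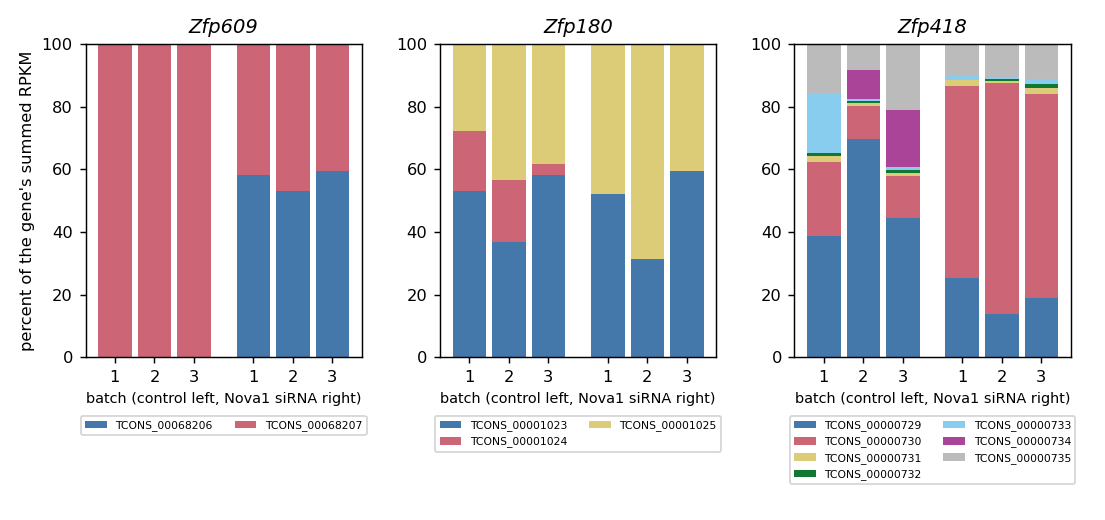
Percent of the gene's summed RPKM (y axis) in each assembled transcript of Zfp609, Zfp180 and Zfp418, by batch, with control libraries at the left and Nova1 siRNA libraries at the right of each panel. Of Zfp609 the transcript TCONS_00068206 is at 0 in controls and at 53.1% to 59.5% in knockdowns, and in Zfp418 TCONS_00000730 takes 61.2% to 73.6% after knockdown.

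Differences in mean share were found across the family, and the counts that follow include the genes whose transcripts passed. The further genes named below did not pass. Among 212 Zfp genes with at least 2 transcripts and 0.5 RPKM in both groups, the largest change of a mean share had a median of 14.1 points, against 10.1 points over 9126 genes. It was above 20 points in 75 Zfp genes (35.4% against 25.4%) and above 50 points in 14 (6.60% against 1.72%). An estimate of 0 in 1 or more libraries was found for 41.0% of tested Zfp transcripts and 34.7% of all tested. In Zfp882 the transcript TCONS_00030968 held 72.7%, 98.7% and 95.0% in controls and 0 in knockdowns, and in Zfp709 TCONS_00027725 held 78.3%, 35.6% and 51.9% in controls and 0 in knockdowns (adjusted p = 0.21 and 0.36 in limma diffSplice). The main transcript of the knockdown libraries was not the same one throughout. In Zfp882 it was TCONS_00030966 in batch 2, at 95.1%, and TCONS_00030969 in batch 3, at 86.7%. In Zfp426l, TCONS_00067321 held 85.1%, 91.0% and 80.9% in controls and 14.995%, 39.5% and 47.1% in knockdowns (adjusted p = 0.19). Zfp26, Zfp84, Zfp606 and Zfp78 had differences of similar size with shares that varied between libraries of a group, and in the pairs of Zfp882, Zfp709, Zfp426l, Zfp26, Zfp84, Zfp606, Zfp78 and Zfp710 the partners share 91.6% to 100% of the shorter transcript.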

How the data were processed

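The submitters' processing notes name TopHat and the rat build Rnor_5.0. Estimated reads, lengths and RPKM of the transcripts of a merged assembly were deposited by the authors as attribute text for each library. How reads were divided among transcripts, and whether strand was used, is not given in the sources used here. Estimated reads were summed by gene name and locus. The filter, 10 reads scaled to the median depth in 3 libraries, left 15983 genes. Trimmed mean of M values scaling over these genes and voom in limma 3.58.1 (R 4.3.3) were followed by a moderated test with batch as a block, 2 residual degrees of freedom per gene, and Benjamini-Hochberg adjustment over all genes (threshold 0.05). Transcript shares were tested with diffSplice in limma and are printed as percent of a gene's RPKM. Batch numbers come from the titles and pair the libraries: deviations from group means correlated between same-numbered libraries at 0.38, 0.72 and 0.55. The scripts were tested on simulated data.

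Members and gene lists were chosen with earlier results of these data known. The text names called members, the 6 highest and 6 lowest log2 fold changes at 1 CPM or more, the 8 highest levels, called transcripts and 8 further genes by change in share, listed Zfp genes, called pathway genes and reference genes. Others were named after their values were seen. The promoter motifs were chosen after the data were seen, and 2 of them were shortened after matches to longer forms had been counted. Alternatives dropped the replicate block or 1 batch at a time, changed scaling, filter or unit, or corrected for transcript length. Sequences and synonyms come from RefSeq on GRCr8, whose coordinates are printed with sequences only.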

Additional observations from a re-analysis of the deposited data

How the results depend on the processing

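The median log2 fold change of Zfp genes was positive in every alternative run. It was 0.15 with library totals alone (80.0% positive), 0.14 with limma-trend on log2(RPKM + 0.1) and 0.052 with the correction for transcript length, and from 0.076 to 0.120 when a batch was left out. With library totals the median of all genes was 0.058 (61.4% positive), with that limma-trend 0.042 (58.5%) and with the length correction 0.006 (51.3%). The Zfp median thus lay 0.092, 0.093 and 0.046 above that of all genes, against 0.092 in the main fit. Library totals move all genes of a library by about the same amount, so the gap in that fit could hardly differ. The 2 Zfp genes past the threshold in limma were 0 without the replicate block (8 at an unadjusted p under 0.05) and with limma-trend on log2(RPKM + 1) (61) or log2(RPKM + 0.1) (63), and from 0 to 2 when a batch was left out. Over all genes 274 passed in the main fit, and 0 without the replicate block and in both limma-trend fits (521, 3193 and 3111 unadjusted). With a batch left out, from 0 to 75 of all genes passed. Of Zfp genes 1 passed (1 rose, 0 fell) with library totals alone and with trimmed scaling over all genes, an alternative added after seeing the data. In these fits 91 and 72 of all genes passed. With the length correction 8 Zfp genes passed (4 rose, 4 fell), or 2.81% against 3.68% of all genes, and 2 KRAB pathway genes passed. Median of ratios scaling and the other filters on low reads left the count of Zfp genes at 2, while from 119 to 274 of all genes passed. The 4 Zfp transcripts past the threshold in diffSplice were 1 without the replicate block, 7 on log2(RPKM + 0.1), 2 with transcripts of at least 10% of their gene, and from 12 to 26 when a batch was left out. Of all transcripts 95 passed in the main fit, and 107, 165, 58 and from 428 to 509 in these fits. For genes by Simes the 2 became 3 without the replicate block (1 of the 2 among them), 3 on log2(RPKM + 0.1), 1 with transcripts of at least 10% of their gene and from 9 to 12 when a batch was left out, fits in which the share of all genes called was 2.89% to 3.34% against 0.702%. Without the replicate block, on log2(RPKM + 0.1) and with the limit of 10%, 84, 97 and 34 of all genes passed by Simes, against 67 in the main fit. The cause of these changes in count was not tested.

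Among highly expressed members close to 0 the sign turned. Zfp395 was at 0.015 with library totals, 0.070 on log2(RPKM + 1) and 0.073 on log2(RPKM + 0.1). Zfp664 was at 0.039 with library totals, 0.036 on log2(RPKM + 1), 0.037 on log2(RPKM + 0.1) and 0.090 with the length correction, and from -0.057 to 0.053 when a batch was left out. Zfp330 was at 0.046 with library totals, 0.038 on log2(RPKM + 1), 0.040 on log2(RPKM + 0.1) and 0.022 with the length correction, and from -0.042 to 0.033 when a batch was left out. Zfp688 was from -1.01 (without batch 1) to 2.56 (without batch 3). With 3 libraries a group and 2 residual degrees of freedom, calls lie close to the threshold, and low members such as Zfp93, Zfp354b and Zfp709l2 rest on few reads.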
